A study of Mus musculus with 6 samples.

Results

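A set of 10 genes of the oligodendrocyte progenitor and of the newly differentiating oligodendrocyte were followed in hippocampal cells of mice recovering from long demyelination. They were picked by symbol, and all 10 were found among the 20323 genes with values. Pdgfra, Cspg4, C1ql1 and Ptprz1 stood for the progenitor, Gpr17, Enpp6, Tcf7l2 and Bmp4 for the differentiating cell, and Olig1 and Olig2 for the lineage at both stages. No filter on low values was applied, so the 10 genes tested are all members.

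The cells were GFP-positive and were collected by magnetic sorting from the hippocampus of Nestin-CreERT2;Rosa26-mGFP mice, 1 mouse per library. In this genotype a tamoxifen-dependent Cre driven by Nestin switches on a membrane GFP, so cells that expressed Nestin at recombination and their descendants are marked. All mice ate cuprizone, a copper chelator that kills oligodendrocytes, for 10 weeks and then recovered for 4 weeks. The 3 vehicle mice received 0.1% bovine serum albumin in saline. The 3 treated mice received neuregulin 1 beta 1 (Nrg-1β1), which binds and activates ErbB receptor kinases, at 60 µg per kg per day by the series text, while the sample labels give the same figure in grams. The mice's age is not given in the sources used here.

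Oligodendrocyte progenitors divide in response to PDGF, express the proteoglycan NG2, and remain in the adult brain as the source of new myelin. When they leave the cell cycle they lose Pdgfra and Cspg4 and pass through a short stage with high Gpr17, Bmp4 and Enpp6 before the myelin genes come on. Olig1 and Olig2 are basic helix-loop-helix transcription factors required for the lineage. The design asks how Nrg-1β1 given after demyelination alters the transcripts of these hippocampal cells.

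Values are log2(normalized count + 4) as deposited, called log2 values here, and differences are Nrg-1β1 minus vehicle. The offset of 4 shrinks differences of genes with low normalized counts. The recovered depth was 72953034, 1075813 and 47076006 reads for the vehicle libraries, in the order of their numbers, and 567073, 662909 and 1327003 for the Nrg-1β1 libraries. Depth thus differed with the group except for vehicle library 2. Vehicle libraries 1 and 2 had high Xist and few reads of Y-linked genes (Uty had 1 and 0 reads), while vehicle library 3 had Xist (1045 reads) and Uty (395 reads) together. The Nrg-1β1 libraries had 1 to 3 Xist reads. Sex-linked transcripts thus moved partly with the group, and their part in the results was not tested. Whether vehicle library 3, with Xist and Uty together, held RNA of 1 mouse only was not tested either. All 26 genes of the oligodendrocyte progenitor marker list had reads in every library. So did 10 of 10 markers of neural stem cells and neuroblasts in the vehicle libraries, and 8 or 9 of 10 in the Nrg-1β1 libraries. Here 1 read was enough to count. By that measure all 10 neuron markers were present in every library too, and 10 or 11 of 11 microglia markers. Presence alone thus does not name the cells. The 18 mature myelin genes were also present, with a summed level of 98102 to 194927 normalized counts in vehicle and 110246 to 143126 in Nrg-1β1. Mature myelin transcripts were thus part of these libraries, while the label names neural progenitor cells.

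Among the 10 members, 1 passed the test and 9 did not. C1ql1 rose with Nrg-1β1 by 1.99 on the log2 scale (3.97-fold on that scale, n = 3 each), and no member fell. Over all genes 1.06% passed at an adjusted p of 0.05 (limma), 0.438% higher and 0.625% lower. Those were 89 higher and 127 lower genes, against 12 and 53 with quantile normalization and 335 and 164 with centring on library medians. In 5 of the 10 members the groups did not overlap, beside 17.7% of all genes. Of these, 4 were higher, beside 7.37% of all genes, and 1 was lower, beside 10.4%. At an unadjusted p of 0.05, 5 members passed, beside 13.0% of all genes. The median difference was 0.42 for the members and 0.03 for all genes as deposited, and 0.63 and 0.25 with centring on library medians. In bulk RNA, fewer cells of a type and less RNA per cell cannot be told apart.

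**Figure D1:**
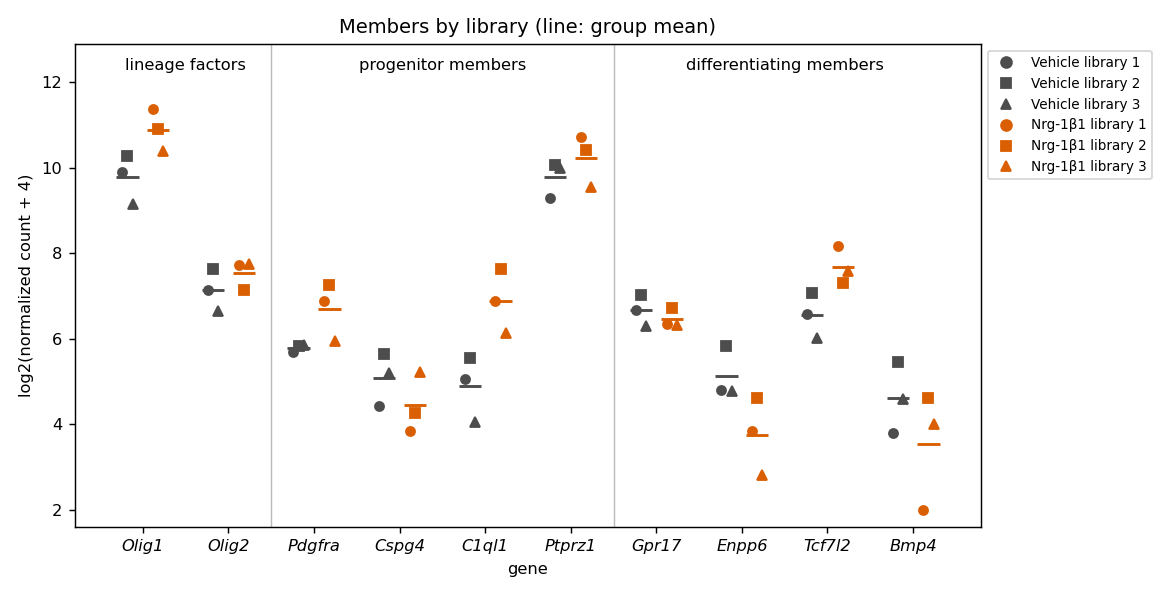
Each point is the log2(normalized count + 4) of a gene in 1 library, with vehicle in grey, Nrg-1β1 in orange, the library number as the marker shape and the group mean as a line. The groups are apart in Olig1, Pdgfra, C1ql1 and Tcf7l2 (Nrg-1β1 above) and in Enpp6 (Nrg-1β1 below), and Bmp4 lies at its lowest possible value in Nrg-1β1 library 1.

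The promoters of 3 members are shown because the window that RefSeq's annotation (GRCm38.p6) gives for them ends right before the first base of the gene. They belong to the lineage factor Olig2, to a progenitor gene and to a differentiating gene. An entry was taken for 7 of the 10 members, in a search of the members that left out 1 chromosome. Each sequence is the 250 bases before the start, on the gene's strand, and capitals mark the E-box CANNTG, the kind of site that helix-loop-helix factors bind. No source used here names the build of the deposited values, and the windows serve as sequence only.
Olig2, chr16:91225300-91225549, plus strand: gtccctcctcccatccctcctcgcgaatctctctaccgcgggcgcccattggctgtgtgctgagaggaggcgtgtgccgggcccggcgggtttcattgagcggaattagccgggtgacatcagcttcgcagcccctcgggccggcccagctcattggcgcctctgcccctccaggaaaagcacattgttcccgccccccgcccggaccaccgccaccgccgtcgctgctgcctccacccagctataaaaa
Cspg4, chr9:56864854-56865103, plus strand: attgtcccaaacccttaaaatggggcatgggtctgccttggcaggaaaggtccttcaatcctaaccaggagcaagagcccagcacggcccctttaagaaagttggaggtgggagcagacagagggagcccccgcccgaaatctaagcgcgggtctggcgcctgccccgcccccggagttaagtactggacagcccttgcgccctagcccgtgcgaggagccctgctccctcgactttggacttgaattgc
Bmp4, chr14:46390670-46390919, minus strand: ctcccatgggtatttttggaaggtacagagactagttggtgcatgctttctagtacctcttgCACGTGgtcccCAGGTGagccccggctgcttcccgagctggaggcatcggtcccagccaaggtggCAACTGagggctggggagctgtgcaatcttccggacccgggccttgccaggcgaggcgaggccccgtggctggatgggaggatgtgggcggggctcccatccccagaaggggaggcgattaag
The Bmp4 window held 3 E-boxes, and the Olig2 and Cspg4 windows held none. Of 32841 promoter windows of this length, 66.2% held at least 1 E-box. The site ATCAAAG of TCF/LEF factors such as the product of Tcf7l2, searched on both strands, was in none of the 7 members' windows and in 3.21% of all windows. These matches describe letters only.

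The progenitor receptor and surface genes did not move as a block. Pdgfra encodes the PDGF receptor alpha, which drives division of progenitors. Its log2 values were 5.70, 5.82 and 5.86 in vehicle and 6.88, 7.25 and 5.95 in Nrg-1β1. The vehicle libraries lay close together (SD 0.08), and Nrg-1β1 libraries 1 and 2 lay well above them while library 3 lay just above. The difference was 0.90 ± 0.37 (SE, 95% interval 0.12 to 1.68), which did not pass (adjusted p = 0.287, limma). The same values rest on 22, 29 and 19 reads in the Nrg-1β1 libraries and on 17 reads in vehicle library 2.

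Cspg4 encodes the NG2 proteoglycan, carried by progenitors and also by pericytes. Its log2 values were 4.42, 5.65 and 5.20 in vehicle and 3.84, 4.27 and 5.23 in Nrg-1β1, so the groups overlapped. The difference was -0.64 ± 0.51 (SE, 95% interval -1.72 to 0.43, adjusted p = 0.657, limma). Only 2, 3 and 11 reads stood behind the Nrg-1β1 values. Within a library, Cspg4 minus Pdgfra was -3.04, -2.98 and -0.72 log2 units in Nrg-1β1, against -1.28, -0.17 and -0.66 in vehicle, so Nrg-1β1 libraries 1 and 2 stood apart and library 3 did not.

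Markers of other cells that carry these genes were read beside them. Of 12 pericyte and smooth muscle markers 1 fell (Vtn) and 0 rose (limma; 0 with limma-voom), with a summed level of 244 to 622 normalized counts in vehicle and 163 to 222 in Nrg-1β1. Of the 12 differences 10 were negative and 2 positive, those of Notch3 (0.83) and Abcc9 (0.04). The pericyte markers Kcnj8 and Higd1b and the muscle filament gene Des had no read in any Nrg-1β1 library. Vehicle library 2, of similar depth, had 0 reads of Kcnj8 and of Higd1b and 2 of Des. Markers of fibroblasts, which also carry Pdgfra, summed to 233 to 608 and 69.9 to 169 normalized counts, with all 8 differences negative and 0 past the threshold (limma; 3 at an unadjusted p of 0.05, 0 with limma-voom). Their part in the values of Cspg4 and Pdgfra was not tested.

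C1ql1 encodes a secreted C1q-like protein, a marker of progenitors that certain neurons also make. Its log2 values were 5.07, 5.56 and 4.06 in vehicle and 6.88, 7.63 and 6.15 in Nrg-1β1. Every Nrg-1β1 library lay above every vehicle library, although the values of Nrg-1β1 alone spread over 1.48 log2 units. The mean went from 4.90 ± 0.76 to 6.88 ± 0.74 (SD, n = 3 each), a difference of 1.99 ± 0.45 (SE, 95% interval 1.05 to 2.93, adjusted p = 0.0382, limma). In normalized counts these were 29.5, 43.2 and 12.7 in vehicle and 114, 194 and 66.8 in Nrg-1β1, from 487, 14 and 210 reads and from 22, 38 and 22 reads. The vehicle library nearest in depth to the Nrg-1β1 libraries is library 2. Against it alone the difference was 1.32, and against the deep vehicle library 3 alone it was 2.82. The call was lost when any 1 library was left out, with adjusted p from 0.113 to 0.406 (limma) and differences of 1.57 to 2.36. It held with centring on library medians (adjusted p = 0.0030, limma) and was lost with quantile normalization (0.0972), an offset of 1 (0.0626), the filter on the mean (0.0750), no intensity trend (0.128) and limma-voom (0.0702).

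The secreted paralogs C1ql2, C1ql3 and C1ql4 differed by 0.17, -0.35 and 0.36, and their neuronal receptor gene Adgrb3 by 0.73. None of these 4 passed (limma; 1 at an unadjusted p of 0.05, 0 with limma-voom), and whether C1ql1 differed more than they did was not tested. C1ql4 had 1 read in the Nrg-1β1 libraries and 5 in vehicle, and with limma-voom on those reads its difference was 3.77 (adjusted p = 0.108). Its pooled ratio was 9.29 (95% interval 0.196 to 83.0, exact Clopper-Pearson), so no difference was detectable at this depth. All 5 vehicle reads came from the deep libraries 1 and 3. The sign turned for C1ql2 without vehicle library 3 (-0.02) or Nrg-1β1 library 2 (-0.18), and for C1ql4 without Nrg-1β1 library 2 (-0.04).

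Ptprz1 encodes a receptor tyrosine phosphatase of progenitors and astrocytes. Its log2 values were 9.31, 10.06 and 9.99 in vehicle and 10.72, 10.42 and 9.55 in Nrg-1β1. Nrg-1β1 library 3 fell within the vehicle range, and the other two lay above it. The difference was 0.44 ± 0.34 (SE, 95% interval -0.27 to 1.15, adjusted p = 0.64, limma). Among genes for its ligands and binding partners, Mdk (midkine) differed by 0.99, Cntn1 (contactin 1) by 0.59, Nrcam by 0.45 and Tnc (tenascin C) by -0.91. None of the 5 measured passed (limma; 1 at an unadjusted p of 0.05, 0 with limma-voom). The 12 astrocyte markers summed to 27978 to 40100 normalized counts in vehicle and 50238 to 51321 in Nrg-1β1, with 12 positive differences and 0 past the threshold (limma; 5 at an unadjusted p of 0.05, 0 with limma-voom). Their part in the Ptprz1 values was not tested.

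The lineage factors differed from each other in how the groups lay. Olig1 had log2 values of 9.91, 10.28 and 9.16 in vehicle and 11.37, 10.91 and 10.40 in Nrg-1β1. The lowest Nrg-1β1 library lay just above the highest vehicle library. The difference was 1.11 ± 0.35 (SE, 95% interval 0.38 to 1.83) and did not pass (adjusted p = 0.133, limma). Against vehicle library 2 alone it was 0.61, and against vehicle library 3 alone 1.73. With 375 to 513 reads in each Nrg-1β1 library, Olig1 had the most reads of the 10 members there.

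Olig2 had log2 values of 7.15, 7.63 and 6.64 in vehicle and 7.72, 7.15 and 7.74 in Nrg-1β1, and the groups overlapped. Its difference was 0.39 ± 0.32 (SE, 95% interval -0.28 to 1.07, adjusted p = 0.671, limma), and -0.10 against vehicle library 2 alone. Sox10, the partner factor that stays on through myelination, differed by -0.27 ± 0.31 (SE, adjusted p = 0.721, limma), and by 0.14 against vehicle library 3 alone. Of 9 genes for helix-loop-helix partners and repressors 0 passed (limma; 1 at an unadjusted p of 0.05, 0 with limma-voom). The inhibitor gene Id2 differed by 1.02, and the E protein genes Tcf12 and Tcf4 by 0.29 and 0.22. Tcf12 turned to -0.06 against vehicle library 3 alone, and Tcf4 to -0.10 with quantile normalization.

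**Figure D2:**
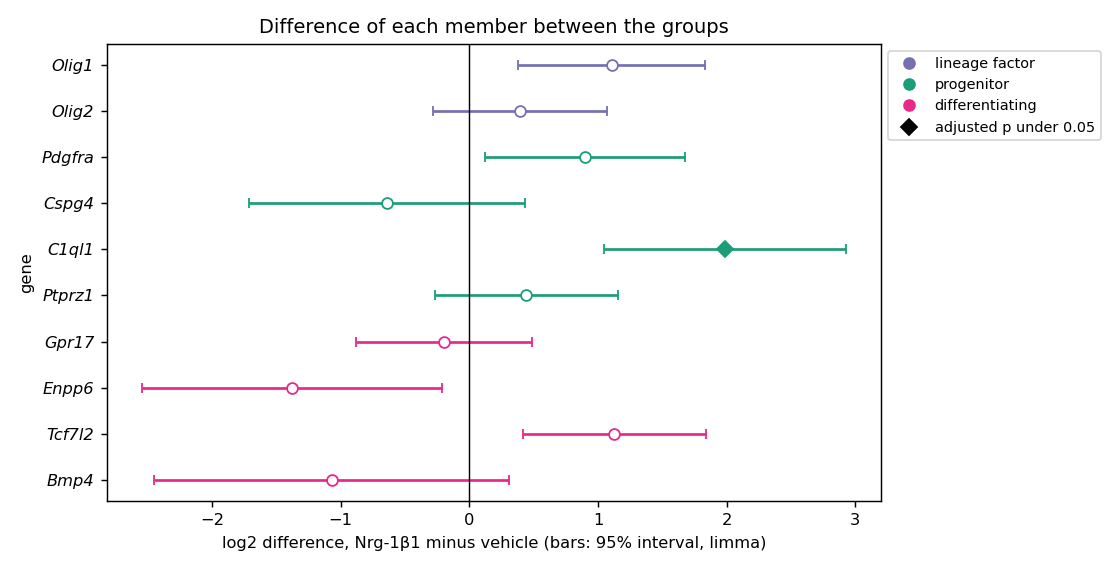
Points are log2 differences (Nrg-1β1 minus vehicle) with 95% intervals from limma, in purple for the lineage factors, green for progenitor and pink for differentiating members. The filled diamond marks C1ql1, the member with an adjusted p under 0.05, and Cspg4 and Tcf7l2 lie on the other side of 0 from the rest of their stage. Gpr17, at -0.20, turned to 0.02 with centring on library medians.

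Among the differentiating members, Gpr17 encodes an orphan receptor that marks the committed progenitor. It had log2 values of 6.66, 7.03 and 6.30 in vehicle and 6.35, 6.73 and 6.32 in Nrg-1β1. The 3 Nrg-1β1 libraries lay inside the vehicle range. The difference was -0.20 ± 0.33 (SE, 95% interval -0.88 to 0.49, adjusted p = 0.796, limma), and it turned to 0.02 with centring on library medians and to 0.17 against vehicle library 3 alone.

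Enpp6 encodes a choline phosphodiesterase that marks oligodendrocytes as they begin to differentiate. Its log2 values were 4.80, 5.82 and 4.79 in vehicle and 3.84, 4.61 and 2.82 in Nrg-1β1. All Nrg-1β1 libraries lay below all vehicle libraries, with vehicle library 2 highest. The difference was -1.38 ± 0.56 (SE, 95% interval -2.55 to -0.22) and did not pass (adjusted p = 0.274, limma). The Nrg-1β1 libraries held 2, 4 and 1 reads, against 17 in vehicle library 2 and 394 and 391 in the deep ones. Pooled over reads, the level in Nrg-1β1 was 0.405 times that in vehicle (95% interval 0.163 to 0.839, exact Clopper-Pearson). These bounds reflect counting error alone, without the spread between mice. Pooling weights libraries by depth, so the vehicle level in it is mostly that of the deep libraries 1 and 3.

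Bmp4 encodes a bone morphogenetic protein that committed progenitors make and that holds back their maturation. It had log2 values of 3.79, 5.46 and 4.58 in vehicle and 2.00, 4.61 and 4.01 in Nrg-1β1, where library 1 had no read. A library floor of 3 reads there equals 15.5 normalized counts, more than the 9.87 seen in vehicle library 1. The difference was -1.07 ± 0.66 (SE, 95% interval -2.46 to 0.31, adjusted p = 0.53, limma), and -0.30 without Nrg-1β1 library 1. Over pooled reads the ratio was 0.735 (95% interval 0.315 to 1.46), so no difference was detectable at this depth. The vehicle level in that ratio is again mostly that of libraries 1 and 3.

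Tcf7l2 encodes a Wnt effector that is high for a short time as oligodendrocytes differentiate and is also found in some neurons. Its log2 values were 6.59, 7.06 and 6.02 in vehicle and 8.17, 7.30 and 7.59 in Nrg-1β1. The groups did not overlap, and Tcf7l2 was the one differentiating member with a positive difference. That was 1.13 ± 0.34 (SE, 95% interval 0.42 to 1.84), short of the threshold (adjusted p = 0.115, limma). With centring on library medians it was 1.34 and passed (adjusted p = 0.0485, limma). Against vehicle library 2 alone it was 0.62, and against vehicle library 3 alone 1.67. The 10 neuron markers summed to 4436 to 7332 normalized counts in vehicle and 8380 to 11784 in Nrg-1β1, with 10 positive differences and 0 past the threshold (limma; 4 at an unadjusted p of 0.05, 0 with limma-voom). Their part in the Tcf7l2 and C1ql1 values was not tested.

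The stage comparison sets the progenitor members against the differentiating ones. The mean over the 6 libraries was subtracted from each gene, and the 4 members of a stage were averaged. The progenitor mean was -0.60, 0.05 and -0.45 in vehicle and 0.35, 0.67 and -0.01 in Nrg-1β1. The differentiating mean was -0.09, 0.79 and -0.13 in vehicle and -0.46, 0.26 and -0.37 in Nrg-1β1. Vehicle library 2 was the highest of its group in both, and each mean overlapped between the groups.

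Progenitor minus differentiating was -0.51, -0.74 and -0.32 in vehicle and 0.81, 0.41 and 0.36 in Nrg-1β1. Taken within a library, the groups were apart, and the difference between their means was 1.05 on the log2 scale. No p is given, because the genes and their stages were set with earlier results known. Without C1ql1 the difference was 0.61 and the groups overlapped. Without Enpp6 alone it was 0.72 and without Bmp4 alone 0.82, and the groups stayed apart. Without Enpp6 the gap was narrow (-0.06 in Nrg-1β1 library 3, -0.16 in vehicle library 3). Without both Enpp6 and Bmp4, the differentiating members with few reads, the difference was 0.21 and the groups overlapped again. Cspg4, a progenitor member that also had few reads, was kept there. Without Cspg4 alone the difference was 1.49, and without Tcf7l2 alone 1.55, with the groups apart in both. Without Cspg4 and Tcf7l2, the members that went against their stage, it was 1.99. These subsets were chosen after the values were seen.

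**Figure D3:**
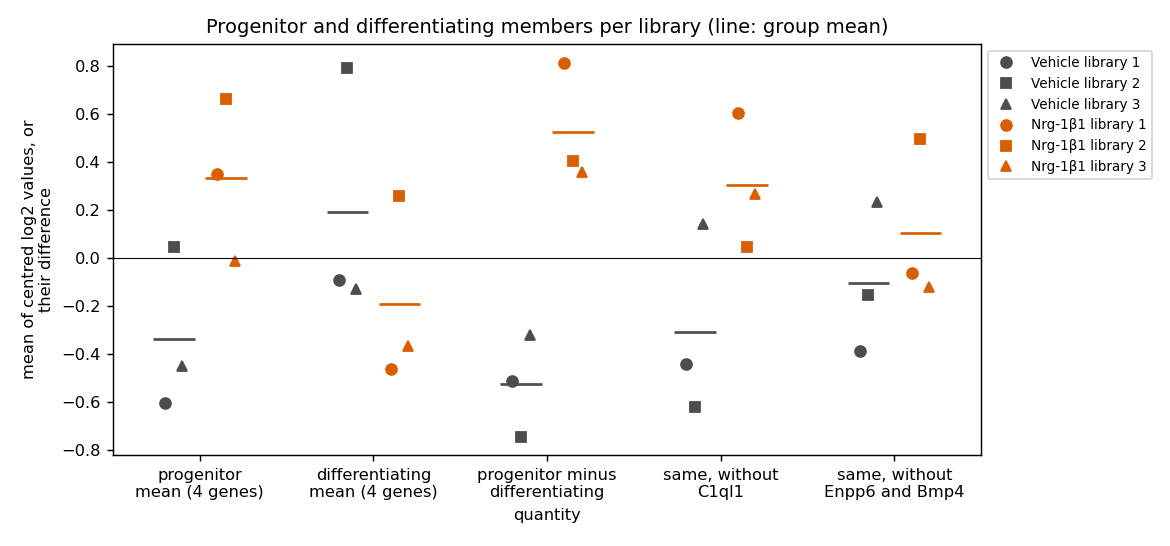
Points are library values (vehicle grey, Nrg-1β1 orange, marker shape for library number, line for the group mean) of the mean centred log2 value of each stage, of their difference, and of that difference with named genes removed. Progenitor minus differentiating runs from -0.74 to -0.32 in vehicle and from 0.36 to 0.81 in Nrg-1β1. The groups overlap once C1ql1, or Enpp6 and Bmp4 together, are removed.

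Genes around the members gave the setting. Of 20 further progenitor genes 0 passed (limma; 2 at an unadjusted p of 0.05, 0 with limma-voom), with 16 positive differences and a median of 0.26. The transcription factor gene Sox5 differed by 1.22 ± 0.34 (SE, adjusted p = 0.0848, limma), the proteoglycan gene Ncan (neurocan) by 0.90, the xylosyltransferase gene Xylt1 by 0.81 and Lims2 by -0.67. Of 15 further genes of committed and newly formed oligodendrocytes 0 passed (limma; 2 at an unadjusted p of 0.05, 0 with limma-voom), and the median was 0.17. Tns3, which encodes the adhesion protein tensin 3, differed by 0.87, Rras2 by -1.29, the lysophosphatidic acid receptor gene Lpar1 by 0.54 and the calcium-sensing receptor gene Casr by 1.00, the last on 4 reads in Nrg-1β1. The differentiating genes outside the 10 thus had no common direction either.

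Of 18 myelin genes 0 passed (limma; 7 at an unadjusted p of 0.05, 0 with limma-voom), 17 had negative differences, and the median was -0.77. Gsn (gelsolin) differed by -1.20, Ugt8a, which makes the myelin lipid galactosylceramide, by -1.08, Trf (transferrin) by -0.95 and the myelin-associated glycoprotein gene Mag by -0.89. The groups did not overlap in 9 of the 18, all lower, beside 10.4% of all genes. Their summed level overlapped between the groups, as given above, but most of that sum was Mbp. Mbp alone held 165845, 58663 and 124461 normalized counts in vehicle and 103717, 90198 and 109694 in Nrg-1β1. The sum thus says little about the other myelin genes. Of 11 microglia markers 7 fell and 0 rose (limma; 0 with limma-voom), and they summed to 7431 to 12483 normalized counts in vehicle and 2743 to 3528 in Nrg-1β1. Their part in the myelin values was not tested.

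Ligand and pathway genes of the members were read from lists. In the PDGF list 1 of 6 fell, Pdgfb, which encodes a ligand that endothelial cells make for pericytes (-2.15 ± 0.39, SE, adjusted p = 0.0103, limma). It did not pass without the intensity trend (adjusted p = 0.0780, limma) or with limma-voom (0.0702). Pdgfrl, Pdgfd and the pericyte receptor gene Pdgfrb differed by -0.82, -0.96 and -0.48. Of the 12 endothelial markers 8 fell and 0 rose (limma; 0 with limma-voom), and they summed to 661 to 3322 normalized counts in vehicle and 124 to 153 in Nrg-1β1. Their part in the Pdgfb value was not tested.

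In the BMP list 1 of 24 measured genes fell, Id1, a direct target of BMP signals (-1.92 ± 0.43, SE, adjusted p = 0.0348, limma). The call was lost with quantile normalization (adjusted p = 0.102, limma), an offset of 1 (0.0562), the filter on the mean (0.0630), no intensity trend (0.118) and limma-voom (0.0702). Its relative Id2 differed by 1.02, and the antagonist genes Fst (follistatin) and Nog (noggin) by 1.15 and -1.28 on 4 and 2 reads in Nrg-1β1. The median was -0.15. Neither Pdgfb nor Id1 passed when any 1 library was left out (adjusted p from 0.0554 to 0.299 and from 0.102 to 0.412, limma). Of 20 Wnt and TCF genes 0 passed (limma; 2 at an unadjusted p of 0.05, 0 with limma-voom), with a median of -0.09. The TCF paralogs Tcf7 and Tcf7l1 differed by -1.32 and 0.88, and the β-catenin degradation genes Apc and Gsk3b by -0.66 and 0.62.

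Patterns across the 6 libraries were compared by Euclidean distance of centred log2 values, over the 10161 other genes with a mean at or above the median. The genes nearest to Pdgfra were Strn4, Alkbh1, Gnl3l, Vrk1 and H1f4, at distances of 0.30 to 0.38, and its nearest member was Ptprz1 (0.88, rank 442). The genes nearest to C1ql1 were Gm15417, Tpt1, 2310010J17Rik, Glrx3 and Bri3, at 0.54 to 0.65, and its nearest member was Olig1 (1.44, rank 155). The genes nearest to Gpr17 were Atpaf1, Kcnf1, Nutf2, Zfp839 and Litaf, at 0.22 to 0.25, and its nearest member was Olig2 (1.09, rank 3685). Enpp6 and Bmp4 lay below the median and were not among the 10161 genes, but they were included in the search for the nearest member.

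**Figure D4:**
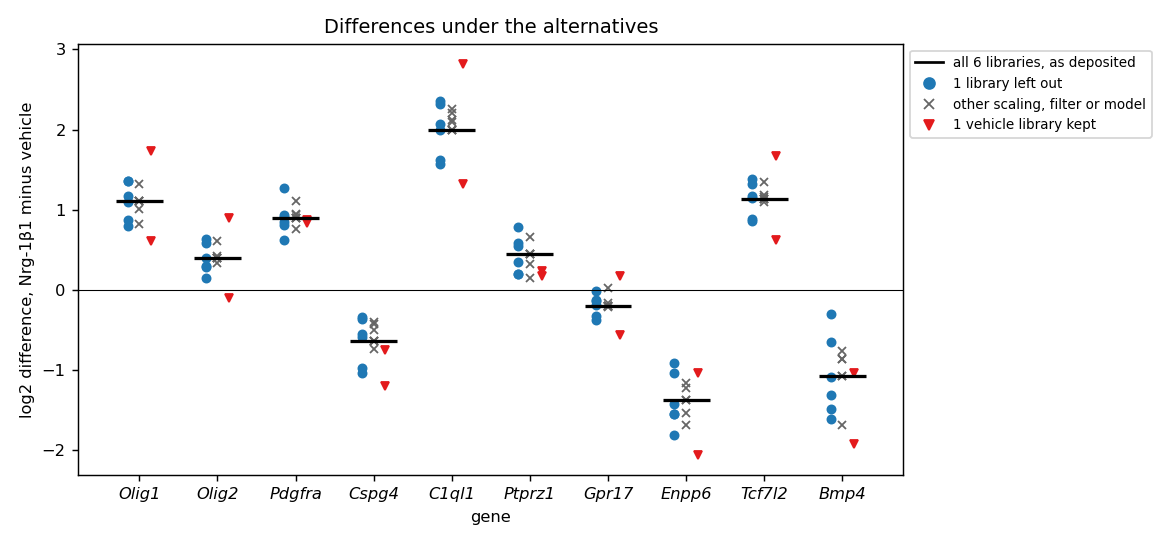
For each gene the black line is the log2 difference (Nrg-1β1 minus vehicle) with all 6 libraries, blue points leave out 1 library, grey crosses use another scaling, filter or model, and red triangles keep 1 vehicle library. C1ql1 stays between 1.32 (against vehicle library 2 alone) and 2.82 (against vehicle library 3 alone). Enpp6 stays between -2.06 (against vehicle library 2 alone) and -0.91 (without Nrg-1β1 library 3). Gpr17 crosses 0 with centring on library medians (0.02) and against vehicle library 3 alone (0.17). Olig2 crosses it against vehicle library 2 alone (-0.10).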

How the data were processed

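RNA from sorted hippocampal cells of 6 mice, 3 per group, was sequenced. Trimmomatic and Bowtie2 are named in the submitters' processing notes. No source used here gives their versions, the genome build, the counter, the strand setting or the normalization. The authors deposited log2 values for 27102 genes, of which 6779 were blank in all libraries. The lowest value of each library is the log2 of 4, and unlogged values minus 4 were whole multiples of 1 step per library (100% of values, with a tolerance of 0.1 read). They were therefore read as log2(normalized count + 4), and reads were recovered from them, a reading taken from the values. A read is worth 0.0605 to 5.17 normalized counts.

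Groups come from the titles. The 2 groups were compared with limma 3.58.1 (R 4.3.3) with an intensity trend over all 20323 genes and Benjamini-Hochberg adjustment at 0.05, and all adjusted p-values are limma's. Replicate numbers were not used to pair the libraries in the main comparison. The members and lists were chosen with earlier results of these data known. From each pathway list the up to 4 genes with the smallest p are named, along with Sox10 and the 5 nearest patterns of Pdgfra, C1ql1 and Gpr17. A gene that this rule names is not reported here. Vtn, Kcnj8, Des, Higd1b, Notch3, Abcc9, Xist and Uty were named after their values were seen. Of the listed BMP genes, 24 of 25 had values. Alternatives changed the scaling, offset, filter, model and libraries. TMM factors for limma-voom were computed by the published formula. The labels name no molecular identifiers, so copies of a molecule could not be told apart.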

Additional observations from a re-analysis of the deposited data

How the results depend on the processing

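The count of changed genes was 216 with all libraries. It was 65 with quantile normalization, 499 with centring on library medians, 129 with an offset of 1, 70 among genes with a mean at or above the median, 21 without the intensity trend and 6 with limma-voom and TMM on recovered reads. It ranged from 0 to 56 when 1 library was left out, and it was 0 against vehicle library 2 alone (1589 at an unadjusted p of 0.05) and 0 against vehicle library 3 alone (2059). Where 1 vehicle library was kept, it was assumed to vary like the Nrg-1β1 libraries. Of the 10 members 1 passed. That count was 2 with centring on library medians (C1ql1 and Tcf7l2) and 0 with quantile normalization, an offset of 1, the filter on the mean, no trend, limma-voom, and against vehicle library 2 or 3 alone, and it was 0 whichever library was left out. The balance of progenitor minus differentiating members was 1.05. It was 1.30 with an offset of 1 and 0.91 to 1.16 with 1 library left out. Against vehicle library 2 alone the balance was 1.27, and against vehicle library 3 alone 0.85. It could not be computed among genes with a mean at or above the median, where Enpp6 and Bmp4 are missing. The cause of these shifts was not tested.

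With replicate number as a block, 627 genes passed, and C1ql1 passed (adjusted p = 0.000675, limma) as the 1 member. Deviations of same-numbered libraries correlated at -0.22, -0.02 and -0.26, and no library deviated most like its namesake. With 3 libraries per group, such correlations cannot show whether the libraries were paired. No pairing was used in the main comparison.

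All alternatives run kept the direction of 8 members. Gpr17 turned to 0.018 with centring and 0.17 against vehicle library 3 alone, and Olig2 to -0.097 against vehicle library 2 alone. Against vehicle library 3 alone Sox10 turned to 0.14, Tcf12 to -0.058, Atpaf1 to 0.091, Kcnf1 to 0.030, Zfp839 to 0.12, Litaf to 0.10 and Nutf2 to 0.26. With centring Nutf2 turned to 0.083 and Litaf to 0.056. With quantile normalization Nutf2 turned to 0.031 and Tcf4 to -0.097, and with limma-voom Nutf2 turned to 0.050. With 1 library left out C1ql2 ranged from -0.18 to 0.44, C1ql4 from -0.035 to 0.56 and Nutf2 from -0.33 to 0.12. Depth limits Bmp4, Enpp6 and Cspg4, which had under 10 reads in an Nrg-1β1 library.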

Other observations

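Ratios of members within a library, chosen after the values were seen, are not changed by a single scaling factor per library, apart from the offset of 4. Quantile normalization can change them. Gpr17 minus Pdgfra was 0.97, 1.21 and 0.44 log2 units in vehicle and -0.53, -0.52 and 0.37 in Nrg-1β1. All Nrg-1β1 libraries lay below the vehicle range, library 3 (0.37) just below vehicle library 3 (0.44). Neither gene was corrected for its length, so only the change of the ratio between libraries can be read. Tcf7l2 minus Gpr17 was -0.07, 0.03 and -0.28 in vehicle and 1.82, 0.57 and 1.27 in Nrg-1β1. The ratio of these differentiating genes was higher in all Nrg-1β1 libraries than in any vehicle library.

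Enpp6 minus Gpr17 was -1.87, -1.21 and -1.51 in vehicle and -2.51, -2.12 and -3.51 in Nrg-1β1, the last on 1 Enpp6 read. The neighbouring paralogs Olig1 and Olig2 differed by 2.76, 2.65 and 2.52 in vehicle and by 3.66, 3.76 and 2.66 in Nrg-1β1, where libraries 1 and 2 stood above the vehicle range and library 3 lay within it. C1ql1 minus Pdgfra was -0.63, -0.26 and -1.80 in vehicle and 0.00, 0.38 and 0.20 in Nrg-1β1, without overlap. None of these ratios was tested.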
